A study of Mus musculus with 12 samples.

Results

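Oligodendrocyte precursor cells (OPCs) are proliferating glia that mature into the myelinating oligodendrocytes of the central nervous system, and they carry both receptors for tumor necrosis factor (TNF), TNFR1 and TNFR2. TNFR1 is known for NF-κB activation and cell death signaling, and TNFR2 for NF-κB and AKT signaling that favors survival. The question addressed here is how unstimulated OPCs labeled TNFR2-/- differed from wild-type (WT) OPCs before any cytokine was added. Of the 12 RNAseq libraries of the series, 6 hold these cells, namely WT non-stimulated (NS) replicates 2, 3 and 4 and TNFR2-/- NS replicates 2, 4 and 5. WT cells came from mice that the study's methods name C57BL/6J and TNFR2-/- cells from mice with a germline deletion of TNFR2, so that every cell of a pup and not only its OPCs carries it, and the labels give C57BL/6 as the strain of both. Cortices of pups aged 2 to 5 days were dissociated, PDGFRα+ cells were collected with magnetic beads, and the cells were kept in OPC medium for 3 days before vehicle was added. The other 6 libraries, WT St and TNFR2-/- St, were given TNF, IFNγ and IL1β at 25 ng/mL each, and entered here only in the estimate of the spread between replicates and as values side by side. The labels do not state whether replicates came from separate litters, so p values measure the spread between these libraries. In these bulk samples fewer cells of a type and less RNA per cell cannot be told apart.

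Expression was measured as FPKM per gene symbol, and library totals ranged from 26886878 read pairs in WT NS 3 to 30335265 in TNFR2-/- NS 5. Tests covered the 17888 genes that averaged 0.1 FPKM or more over the 6 NS libraries, out of 45563 symbols used once. Log2 fold changes are differences of mean log2(FPKM + 0.5), TNFR2-/- NS minus WT NS, with their standard error (SE), and adjusted p values come from limma with Benjamini-Hochberg adjustment over all genes tested. Upregulated and downregulated are used here of genes with a mean of 1 FPKM or more that changed 1.5-fold or more and had an adjusted p no higher than 0.05. In all, 529 genes were called, which is 2.96% of those tested (294 up, 1.64%, and 235 down, 1.31%). An unadjusted p under 0.05 was reached by 30.7%. WT and TNFR2-/- libraries were fully separate in 34.6%, with TNFR2-/- above WT in 20.1% and below it in 14.5%, and 56.0% of genes had a higher mean in TNFR2-/-, with a median log2 fold change of 0.04 over all genes. The median-of-ratios scaling of the libraries moved this median to 0.005 and turned the balance of calls to 226 up and 267 down. The calls rested on an estimate of spread from all 12 libraries, and 7 genes remained called when it came from the 6 NS libraries alone. The 12 libraries are not independent, since NS and St libraries share cultures, and this fit treated them as independent. With culture as a random effect (correlation 0.568) 602 genes were called.

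The 3 cultures labeled TNFR2-/- did not differ evenly from WT. Pairs of libraries were compared by the number of genes at least 1.5-fold apart, among the 13451 genes averaging 1 FPKM or more. Within WT the 3 pairs differed in 522 to 1045 genes, and within TNFR2-/- in 797 to 1749. TNFR2-/- NS 4 was the nearest to WT, with 690 genes apart from WT NS 2, fewer than the 1045 between WT NS 2 and WT NS 3. TNFR2-/- NS 5 was the farthest, with 2481 genes apart from WT NS 2, 2990 from WT NS 4 and 3365 from WT NS 3. TNFR2-/- NS 2 lay between them, with 1037, 1628 and 2368 genes apart from WT NS 2, 4 and 3. The first principal component, 53.7% of the variance, had scores of −12.2, −27.5 and −21.1 in WT NS 2, 3 and 4, and of 16.9, 3.94 and 39.9 in TNFR2-/- NS 2, 4 and 5. The genotypes were thus separate on it, but the step from WT NS 2 to TNFR2-/- NS 4 was smaller than the step between TNFR2-/- NS 4 and TNFR2-/- NS 5. The median SD within a group was 0.098 on the log2 scale in WT NS and 0.149 in TNFR2-/- NS.

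**Figure D1:**
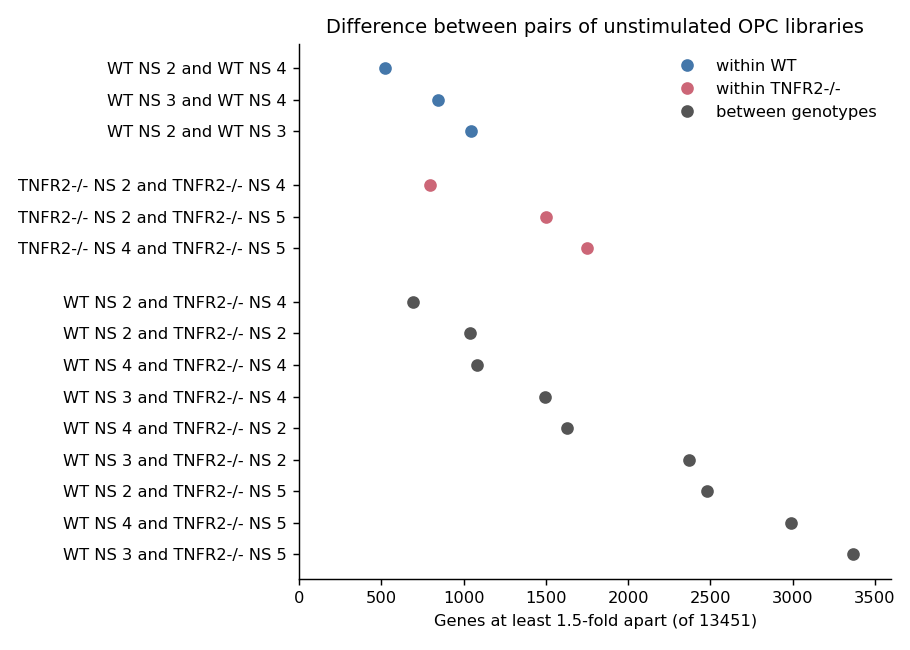
Number of genes at least 1.5-fold apart (x axis, of 13451 genes averaging 1 FPKM or more) in each of the 15 pairs of unstimulated libraries, within WT (blue), within TNFR2-/- (red) and between genotypes (grey). The pair WT NS 2 and TNFR2-/- NS 4 sits at 690, inside the range within WT, and the 3 pairs of a WT library with TNFR2-/- NS 5 sit at 2481 to 3365.

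The same order ran through the called genes. Of the 294 upregulated genes TNFR2-/- NS 5 was the highest of the 3 TNFR2-/- libraries in 213 and TNFR2-/- NS 4 the lowest in 183, with median differences from the WT mean of 0.714, 0.615 and 0.927 on the log2 scale in TNFR2-/- NS 2, 4 and 5. Of the 235 downregulated genes TNFR2-/- NS 5 was the lowest in 174 and TNFR2-/- NS 4 the highest in 189, with medians of −0.829, −0.566 and −1.033. WT NS 2 lay on the side of TNFR2-/- in both sets, being the highest WT library in 200 of the upregulated genes and the lowest in 190 of the downregulated ones. The smallest of the 3 differences was at least 0.75 of the largest in 65 of the 529 genes and under 0.5 of it in 249. When each of the 12 libraries was left out in turn, 44 genes were called every time, 34 up and 10 down, and the other calls were lost at least once. Of the genes described below these include *Tnfrsf1b*, *Masp2*, *Agt*, *Car2*, *Pdk2*, *Mt1*, *Mt2*, *Egr1* and *Rpl34*. Without WT NS 3, WT NS 4, TNFR2-/- NS 5 or TNFR2-/- NS 2 the calls numbered 52, 56, 94 and 230, and without TNFR2-/- NS 4 they numbered 962.

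The gene that was to be deleted went against its label. *Tnfrsf1b*, which encodes TNFR2 (ENSMUSG00000028599; GRCm38, chr4:145213463-145246870), had 15, 12 and 24 reads in WT NS 2, 3 and 4 and 322, 346 and 213 in the libraries labeled TNFR2-/- NS 2, 4 and 5. Its log2 fold change was 2.35 ± 0.21 SE (limma, adjusted p = 0.00133), and the groups did not overlap. FPKM values carry no information on exons. Whether an intact transcript was made was therefore not tested, and all directions in the text are those of the labels. *Tnfrsf1a*, which encodes TNFR1, had 62.8, 61.3 and 60.7 FPKM in WT NS and 62.3, 69.0 and 75.4 in TNFR2-/- NS, with overlapping groups (0.16 ± 0.08 SE, adjusted p = 0.198).

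Several genes near *Tnfrsf1b* on chromosome 4 were raised to a like level in the 3 TNFR2-/- cultures. Within 5 Mb of its start 6 of 95 genes tested were called, all 6 up and including *Tnfrsf1b* itself, which is 6.32% beside 2.96% of all genes, and within 10 Mb 8 of 206 (3.88%), all up. These windows were chosen after the values were seen. *Masp2*, a protease of the lectin pathway of complement (chr4:148602554-148615499), had 0.520, 0.581 and 0.877 FPKM in WT NS and 2.62, 3.40 and 2.83 in TNFR2-/- NS (1.58 ± 0.17 SE, limma, adjusted p = 0.0033). *Gm13251* (chr4:146449023-146470292) had 5 to 8 reads in each WT NS library and 58 to 67 in each TNFR2-/- NS library (1.68 ± 0.17 SE, adjusted p = 0.0023). In both genes no TNFR2-/- library stood apart from the others. Other calls within 10 Mb were the transmembrane protein gene *Tmem51*, the pseudogene *Rps19-ps3*, *Alpl*, which encodes tissue-nonspecific alkaline phosphatase, and *Id3*, with log2 fold changes of 0.77, 0.83, 0.65 and 0.94. Over all 206 genes of that window 120 were higher in TNFR2-/- NS, with a median of 0.06.

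The 10 largest increases, ranked among called genes with fully separate groups, included 2 pseudogene symbols whose parent genes fell. The ranking is by log2 fold changes that the added 0.5 FPKM shrinks in genes of low FPKM. *Gm5900*, annotated as a processed pseudogene on chromosome 7, had 83, 75 and 78 reads in WT NS and 622, 730 and 586 in TNFR2-/- NS (2.88 ± 0.11 SE, limma, adjusted p = 1.75e-06). *Lamtor3*, a subunit of the lysosomal Ragulator complex, shares 49.3% of the 100-base sequences of *Gm5900*, and had 2456, 2574 and 2874 reads against 1652, 2006 and 1693 (−0.60 ± 0.10 SE, adjusted p = 0.0138). *Rpl34-ps1* had 66, 55 and 62 reads in WT NS and 803, 911 and 751 in TNFR2-/- NS (2.05 ± 0.09 SE, limma, adjusted p = 3.6e-06). Its WT values, 0.189, 0.175 and 0.177 FPKM, were under the 0.5 added, and over the alternative settings its log2 fold change ranged from 1.49 to 3.68. *Rpl34*, a protein of the large ribosomal subunit that shares 46.3% of the 100-base sequences of that pseudogene, had 6508, 6525 and 7358 reads against 3094, 3787 and 2784 (−1.14 ± 0.11 SE, limma, adjusted p = 0.00144). It was the 1 downregulated gene among 76 cytosolic ribosomal proteins (1.31% of all genes). Because a gene and its near copy can share reads, these 4 values are uncertain for each symbol alone. *Lamtor3* was named after its values were seen.

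The other large increases were mostly of immune genes. *Osmr*, the receptor subunit for oncostatin M, had 14.0, 8.06 and 10.7 FPKM in WT NS and 49.4, 22.1 and 70.9 in TNFR2-/- NS (1.95 ± 0.40 SE, limma, adjusted p = 0.0208). *Tgtp1*, *Irgm2* and *Igtp* encode interferon-inducible GTPases, and are described with their list. *Dhrs7c*, a dehydrogenase gene known from muscle, had 14, 12 and 10 reads in TNFR2-/- NS and 1 in every WT NS library, at least 3.82-fold higher against a floor of 3 reads per library (adjusted p = 0.00708). *RP24-378G4.3*, an entry without a match in the annotation, had 3.14, 6.62 and 3.37 FPKM against 21.4, 22.6 and 28.7 (adjusted p = 0.00606). *Osmr* was lowest in TNFR2-/- NS 4, whereas *Dhrs7c* and *RP24-378G4.3* were at like levels in the 3 TNFR2-/- libraries.

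The largest decreases were uneven. *Aoc3*, a vascular amine oxidase, had 40, 67 and 48 reads in WT NS and 0, 19 and 7 in TNFR2-/- NS (−3.05 ± 0.76 SE, limma, adjusted p = 0.034). *Isg20*, an RNA exonuclease, had 72.2, 120 and 114 FPKM against 14.4, 56.9 and 9.93 (−2.27 ± 0.55 SE, adjusted p = 0.0315). *Cldn15*, a tight junction claudin, had 15.8, 26.1 and 26.0 FPKM against 3.55, 8.07 and 3.27 (−2.15 ± 0.40 SE, adjusted p = 0.0171). *Npc1l1*, a cholesterol transporter, had 13.3, 29.3 and 21.8 FPKM against 4.37, 9.93 and 2.01 (−2.06 ± 0.55 SE, adjusted p = 0.0398). In all 4 genes WT NS 2 was the lowest WT library and TNFR2-/- NS 4 the highest TNFR2-/- library, so that their gap was the smallest between any 2 libraries of different genotype. *Cd79a*, known as a B cell receptor chain, followed the same order with 36, 79 and 80 reads against 12, 34 and 5 (−2.12 ± 0.57 SE, adjusted p = 0.042). The antisense transcript *Gm16853* had 17.7, 32.4 and 33.4 FPKM against 4.29, 11.7 and 1.59 (−2.46 ± 0.58 SE, adjusted p = 0.0292), and *4931429I11Rik* was listed at 0 in TNFR2-/- NS 2 and 5 and at 1.22 FPKM in TNFR2-/- NS 4. *Fosb* is described with the early-response genes. Of the 10 largest decreases 9 lost their call without WT NS 3, the exception being *Atg4a-ps* (−1.92 ± 0.23 SE, adjusted p = 0.006, and 0.0205 without WT NS 3), with 2.42, 3.92 and 2.31 FPKM in WT NS against 0.242, 0.721 and 0.240.

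Immediate early genes, which are transcribed within minutes of growth factor, calcium or stress signals without new protein synthesis, formed the list with the most downregulated genes. Of 38 tested, 11 were downregulated and 0 upregulated, beside 1.31% of all genes called down. Their median log2 fold change was −0.65, 35 of 38 were lower, and in 21 the 3 TNFR2-/- libraries lay below all WT libraries (14.5% of all genes). Many such genes are controlled through CArG boxes, bound by the serum response factor SRF, or through cAMP response elements (TGACGTCA), bound by CREB. In the 250 bases before the start of transcription, both strands searched, a CArG box was found for 3 of the 29 genes of the list with a RefSeq promoter on GRCm38.p6 (10.3%), namely *Egr2*, *Srf* and *Zfp36*, and for 1.62% of all 27025 genes with one. A cAMP response element was found for *Maff*, *Btg2* and *Dusp1*, also 3 of 29, and for 1.77% of all genes. *Egr2* (1 of its 4 RefSeq starts that hold the motif, some of which overlap) and *Dusp1*, both downregulated, are shown from 200 bases upstream to the start, with the CArG box of *Egr2* and the cAMP response element of *Dusp1* in capitals, on the plus strand at chr10:67537669-67537868 and on the minus strand at chr17:26508473-26508672.
Egr2: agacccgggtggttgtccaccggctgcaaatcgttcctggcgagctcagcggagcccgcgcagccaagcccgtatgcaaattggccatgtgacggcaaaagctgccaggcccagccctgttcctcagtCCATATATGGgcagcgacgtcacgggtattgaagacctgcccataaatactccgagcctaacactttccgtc
Dusp1: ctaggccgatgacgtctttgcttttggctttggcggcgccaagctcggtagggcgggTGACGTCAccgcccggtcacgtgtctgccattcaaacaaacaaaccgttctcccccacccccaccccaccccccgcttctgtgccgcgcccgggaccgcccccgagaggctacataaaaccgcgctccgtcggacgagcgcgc
A match describes the letters only and is not a site of binding in these cells.

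AP-1 subunits, which pair to bind DNA, included 3 downregulated genes of 9, and all 9 were lower. *Fosb* had 116, 210 and 205 FPKM in WT NS 2, 3 and 4 and 31.4, 80.9 and 9.21 in TNFR2-/- NS 2, 4 and 5 (−2.55 ± 0.67 SE, limma, adjusted p = 0.0391). *Fos* had 609, 859 and 864 FPKM against 342, 421 and 234 (−1.25 ± 0.23 SE, adjusted p = 0.0162), and *Jun* 264, 386 and 333 against 148, 242 and 114 (−1.01 ± 0.23 SE, adjusted p = 0.0278). In each, TNFR2-/- NS 5 was the lowest library and WT NS 2 the lowest of WT. Among EGR, NR4A and KLF transcription factors 4 of 13 were downregulated. *Egr2*, a zinc finger factor, had 81.1, 144 and 119 FPKM against 42.4, 76.8 and 25.3 (−1.35 ± 0.33 SE, adjusted p = 0.0312). *Egr1* differed by −1.28 ± 0.18 SE (adjusted p = 0.00819) and was the 1 member of the list that kept its call whichever library was left out. The nuclear receptor gene *Nr4a2* differed by −1.35 and the Krüppel-like factor gene *Klf6* by −1.02 (adjusted p = 0.0244 and 0.0287).

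Among the other early-response genes, 4 of 16 were downregulated. *Csrnp1*, a nuclear protein induced by AXIN1, had 19.7, 27.6 and 29.7 FPKM in WT NS and 7.88, 15.8 and 5.17 in TNFR2-/- NS (−1.49 ± 0.31 SE, limma, adjusted p = 0.0206). *Dusp1*, the phosphatase that inactivates p38 and JNK, had 21.1, 25.8 and 36.1 FPKM against 9.35, 15.8 and 5.67 (−1.46 ± 0.34 SE, adjusted p = 0.0276). *Ier2* and the kinase gene *Sik1* differed by −1.20 and −1.08 (adjusted p = 0.0136 and 0.0423). The members *Gadd45b*, *Ier5* and *Klf2* had values of 0.25, 0.06 and 0.06. The median of the list, relative to the WT mean, was −0.23, 0.13 and 0.15 in WT NS 2, 3 and 4 and −0.40, −0.29 and −1.25 in TNFR2-/- NS 2, 4 and 5, so WT NS 2 and TNFR2-/- NS 4 lay close together and TNFR2-/- NS 5 far below. Without TNFR2-/- NS 5 the median of the list was −0.34. The feedback regulators of ERK signaling gave 1 downregulated gene of 14 (1.31% of all genes), and 4 of the 14 were higher. This was *Spry2*, a Sprouty inhibitor of receptor tyrosine kinases, with 2980, 3834 and 3398 FPKM against 1792, 2806 and 1941 (−0.66 ± 0.18 SE, limma, adjusted p = 0.0427). MAP kinase phosphatases, a family of 21 tested genes, held 3 downregulated members (1.31% of all genes), namely *Dusp1*, *Dusp10* (−1.12) and *Dusp8* (−0.96), and 10 of the 21 were higher.

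**Figure D2:**
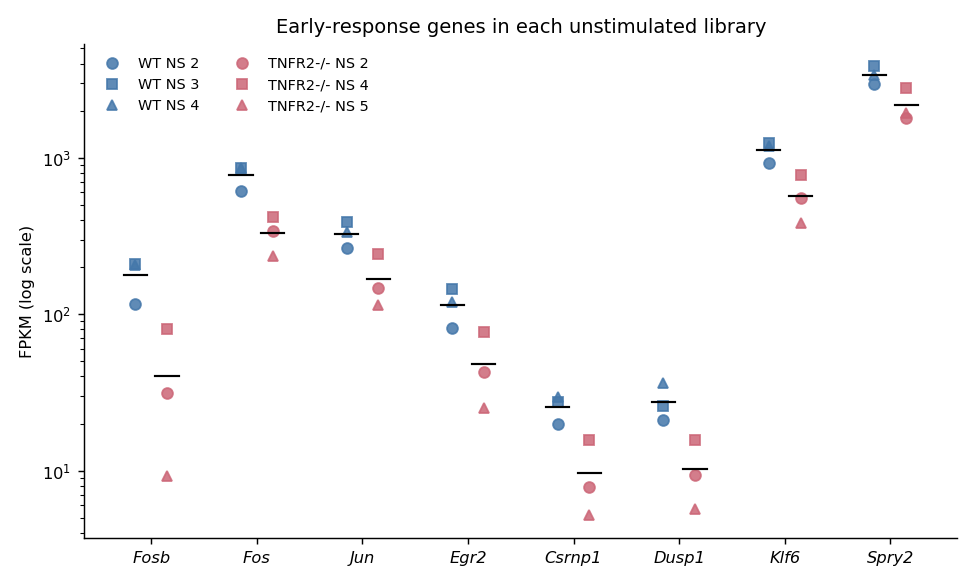
FPKM on a log axis of 8 early-response and feedback genes in WT NS (blue) and TNFR2-/- NS (red) libraries, each point 1 library and each bar the mean of 3. In every gene shown the 3 TNFR2-/- libraries lie below the 3 WT libraries, and TNFR2-/- NS 4 is the highest of the 3; levels are comparable between libraries and not between genes.

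The cells of both genotypes carried an OPC profile. The PDGF receptor gene *Pdgfra* had 136, 157 and 116 FPKM in WT NS and 101, 114 and 96.3 in TNFR2-/- NS (−0.39 ± 0.15 SE, limma, adjusted p = 0.12), and the NG2 proteoglycan gene *Cspg4* 4550, 5109 and 4169 against 3500, 4307 and 3472 (−0.30 ± 0.12 SE, adjusted p = 0.124). The lineage transcription factor *Olig2* had overlapping groups (−0.13 ± 0.10 SE, adjusted p = 0.39). Of 30 OPC genes 11 were higher, with a median of −0.13, and 2 were called (2.96% of all genes). *Pcdh15*, a protocadherin of OPCs, had 76.6, 95.6 and 77.7 FPKM against 46.8, 60.9 and 40.2 (−0.76 ± 0.18 SE, adjusted p = 0.0276). *Sox8*, a transcription factor of oligodendrocyte maturation, had 56.6, 44.5 and 57.3 FPKM against 85.7, 70.2 and 138 (0.84 ± 0.22 SE, adjusted p = 0.0406). *Pcdh15* thus fell and *Sox8* rose in the same libraries, and the summed OPC genes took 12580 to 14660 reads in every 1e6 (RPM) in WT NS and 12050 to 12740 in TNFR2-/- NS, ranges that overlapped.

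Genes of committed precursors were set apart by one culture. Of 18, 0 were called, 15 were higher, and the median was 0.28, but the medians by library were −0.07 and −0.09 in TNFR2-/- NS 2 and 4 and 0.94 in TNFR2-/- NS 5. *Gpr17*, a receptor that marks OPCs leaving the cell cycle, had 34.5, 34.2 and 51.0 FPKM in WT NS and 54.4, 37.5 and 156 in TNFR2-/- NS (0.79 ± 0.59 SE, limma, adjusted p = 0.395). *Neu4*, a sialidase, had 19.2, 18.5 and 35.1 FPKM against 21.1, 17.4 and 92.1 (adjusted p = 0.692). Mature oligodendrocyte genes were higher in 21 of 25, with 1 upregulated (1.64% of all genes). This was *Car2*, which encodes carbonic anhydrase 2, at 80.6, 69.4 and 68.2 FPKM in WT NS and 127, 121 and 106 in TNFR2-/- NS (0.69 ± 0.09 SE, limma, adjusted p = 0.00708). The myelin genes themselves overlapped between genotypes, and WT NS 2 had the highest myelin basic protein gene level of all, *Mbp* being at 721, 429 and 214 FPKM in WT NS against 411, 578 and 539 (0.32 ± 0.49 SE, adjusted p = 0.703).

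The astrocyte list held the most upregulated genes of the lineage lists. Of 18 tested, 5 were upregulated (1.64% of all genes), 17 were higher, the median was 0.72, and in 12 the 3 TNFR2-/- libraries lay above all WT libraries (20.1% of all genes). *Agt*, which encodes angiotensinogen, had 4.11, 3.27 and 2.06 FPKM in WT NS and 9.33, 8.80 and 10.7 in TNFR2-/- NS (1.51 ± 0.19 SE, limma, adjusted p = 0.00606). *Gja1*, the gap junction protein connexin 43, had 339, 234 and 301 FPKM against 463, 458 and 758 (0.92 ± 0.24 SE, adjusted p = 0.0366), and the receptor gene *Fgfr3* 33.5, 25.9 and 30.5 against 58.5, 45.1 and 66.0 (0.90 ± 0.18 SE, adjusted p = 0.019). The glutamate transporter gene *Slc1a2* and the sodium pump subunit gene *Atp1b2* differed by 0.86 and 0.70 (adjusted p = 0.0497 and 0.00958). *Gfap*, the intermediate filament of astrocytes, had 11.8, 6.23 and 12.4 FPKM in WT NS and 19.7, 23.6 and 231 in TNFR2-/- NS, and the water channel gene *Aqp4* 117, 60.6 and 97.7 against 174, 154 and 572, so both were highest in TNFR2-/- NS 5 and neither was called (2.24 ± 0.93 SE, adjusted p = 0.136, and 1.48 ± 0.55 SE, adjusted p = 0.101). Scaled to a library of 1e6 reads (RPM), the summed list took 4372 to 5051 in WT NS and 6305 to 8674 in TNFR2-/- NS, without overlap. *Sox9* and *F3* differed by 0.06 and −0.10. Whether the proportion of astrocytes differed between cultures was not tested.

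**Figure D3:**
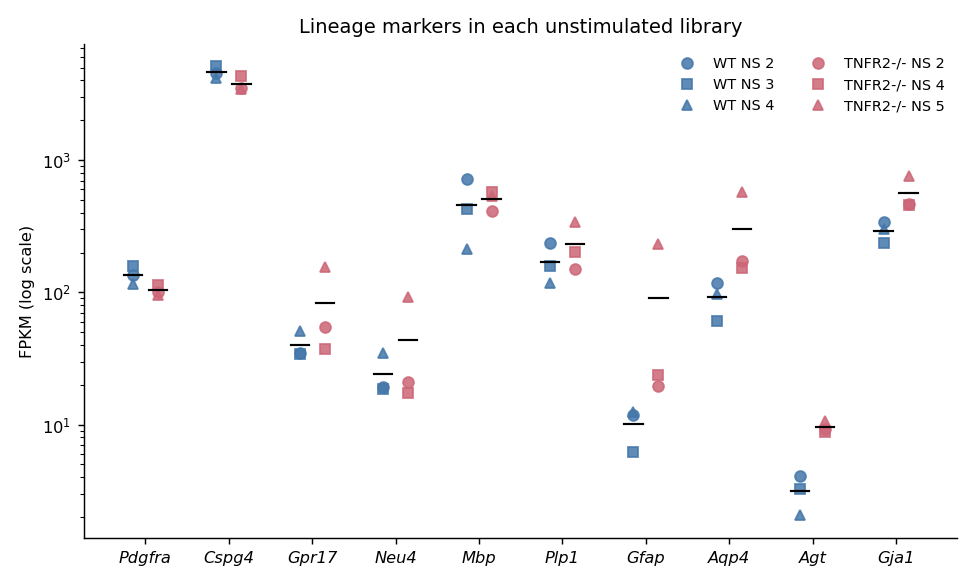
FPKM on a log axis of 10 lineage markers in WT NS (blue) and TNFR2-/- NS (red) libraries, with the mean of 3 as a bar. *Agt* is at 8.80 to 10.7 FPKM in the 3 TNFR2-/- libraries, whereas *Gpr17*, *Neu4*, *Gfap* and *Aqp4* are set apart in TNFR2-/- NS 5; levels are comparable between libraries and not between genes.

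Markers of other cell types differed in number and level. Of 22 microglia and macrophage genes 5 passed the filter, 0 were called, and their sum was 19.2 to 21.1 RPM in WT NS and 15.9 to 18.9 in TNFR2-/- NS. *Aif1* and *Cx3cr1*, defining markers, were below the filter. Endothelial genes summed to 34.2 to 54.2 and 35.5 to 50.01 RPM, with 0 of 7 called. Genes of mural cells and fibroblasts summed to 527 to 1625 and 330 to 1045, with 0 of 15 called. *Col1a1*, a fibrillar collagen chain, had 79.3, 39.6 and 57.9 FPKM in WT NS and 29.1, 27.0 and 13.5 in TNFR2-/- NS (−1.35 ± 0.47 SE, limma, adjusted p = 0.0883). Neuronal genes summed to 1423 to 1622 and 1168 to 1254, with 2 of 19 downregulated (1.31% of all genes). *Elavl4*, an RNA-binding protein of neurons, had 17.0, 21.8 and 18.1 FPKM against 9.85, 12.4 and 8.53 (−0.86 ± 0.16 SE, adjusted p = 0.0174), and the transcription factor gene *Sox11* 218, 253 and 220 against 164, 184 and 116 (−0.60 ± 0.14 SE, adjusted p = 0.0293). The neuronal markers *Tubb3* and *Rbfox3* had overlapping groups. Genes of ependymal cells, Schwann cells and red blood cells had 0 calls among 4, 4 and 1 tested, and neural stem cell genes 0 among 11. The mix of male and female pups also differed. *Xist*, transcribed from the inactive X chromosome of females, had 0.146 FPKM in WT NS 2 and 148 to 288 in the other 5 libraries, and *Ddx3y* on the Y chromosome had 235, 123 and 138 FPKM in WT NS and 117, 52.5 and 39.7 in TNFR2-/- NS.

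Interferon-regulated genes, measured here without any cytokine, included 5 upregulated members of 22 tested (1.64% of all genes), of which *Gbp3* is a guanylate-binding protein gene (0.59 ± 0.13 SE, limma, adjusted p = 0.0234). In all 21 of the 22 were higher, and the median was 0.51, with medians by library of 0.24, 0.35 and 0.71 in TNFR2-/- NS 2, 4 and 5. The transcription factor *Irf1* had 92.1, 61.5 and 77.6 FPKM in WT NS and 132, 109 and 121 in TNFR2-/- NS (0.66 ± 0.13 SE, limma, adjusted p = 0.0185). The immunity-related GTPases were the main effectors called. *Irgm1* had 93.5, 89.6 and 95.8 FPKM against 135, 191 and 260 (1.02 ± 0.18 SE, adjusted p = 0.0155). *Igtp* had 15.6, 10.5 and 19.6 against 26.4, 60.7 and 72.0 (1.69 ± 0.33 SE, adjusted p = 0.0185), and *Irgm2*, which overlaps *Igtp* on chromosome 11 and may share its reads, 2.97, 2.21 and 8.59 against 11.2, 15.04 and 21.9 (1.86 ± 0.40 SE, adjusted p = 0.0228). The related *Tgtp1* had 0, 0 and 1 reads in WT NS and 3, 6 and 5 in TNFR2-/- NS, at least 1.49-fold higher against the floor of 3 reads per library. In these GTPase genes TNFR2-/- NS 2 was the lowest TNFR2-/- library, unlike in the early-response genes, whereas *Irf1* was highest in TNFR2-/- NS 2. In St libraries the log2 fold changes of *Irgm1*, *Igtp*, *Irgm2* and *Irf1* were −0.01, −0.06, 0.14 and 0.07. The median of the whole list was 0.34 in St, and that of its 16 effectors was 0.56 in NS and 0.59 in St. The difference from NS was not tested. *Ifit1*, *Rsad2*, *Usp18* and *Stat2*, induced by type I interferon, had values of 0.33, 0.12, 0.19 and 0.04 and were not called. *Isg20*, an interferon-stimulated gene by its name but not a member of the list, was downregulated (−2.27 ± 0.55 SE, limma, adjusted p = 0.0315).

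Within the TNF and NF-κB list, 3 of 28 genes were upregulated, *Tnfrsf1b* itself included, and 1 was downregulated, beside 1.64% and 1.31% of all genes. Besides *Tnfrsf1b* these were the chemokine gene *Cxcl10*, with 1.45, 1.03 and 2.32 FPKM in WT NS and 2.83, 9.47 and 5.54 in TNFR2-/- NS (1.52 ± 0.33 SE, limma, adjusted p = 0.0245), and the NF-κB inhibitor gene *Nfkbie*, with 8.84, 9.94 and 8.99 FPKM against 11.6, 13.6 and 18.9 (0.61 ± 0.17 SE, adjusted p = 0.0467). *Rel*, the NF-κB subunit c-Rel, had 23.6, 28.8 and 26.4 FPKM against 17.0, 17.3 and 12.6 (−0.74 ± 0.13 SE, adjusted p = 0.0154). *Icam1* was not called (1.43 ± 0.44 SE, adjusted p = 0.0606), nor were *Ccl2*, *Nfkb1* and *Nfkbia* (0.12, −0.00 and −0.10). Among 16 genes of MHC-I presentation 13 were higher, with a median of 0.16 and 1 upregulated (1.64% of all genes). This was the transactivator *Nlrc5*, at 1.23, 1.03 and 0.704 FPKM against 1.49, 2.22 and 2.96 (0.85 ± 0.19 SE, limma, adjusted p = 0.0238).

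Receptors and targets of bone morphogenetic protein (BMP), which holds back oligodendrocyte maturation, included 3 upregulated genes of 11 (1.64% of all genes), but 7 of 11 were higher with a median of 0.03, which became −0.01 and −0.03 with the median-of-ratios and quantile scalings. *Bmpr1b*, a type I receptor, had 3.13, 2.17 and 2.47 FPKM in WT NS and 7.01, 4.76 and 8.84 in TNFR2-/- NS (1.23 ± 0.24 SE, limma, adjusted p = 0.0185). The targets *Id3* and *Id1*, inhibitors of DNA binding, had 32.8, 30.2 and 40.6 against 57.7, 51.4 and 98.3 FPKM (0.94 ± 0.22 SE, adjusted p = 0.0283) and 8.32, 7.86 and 9.32 against 12.6, 12.2 and 17.1 (0.67 ± 0.15 SE, adjusted p = 0.0266). *Bmp2* and *Bmp7* differed by −0.78 and −0.30 and were not called. Of 13 Notch genes 9 were higher and 0 were called, with *Hes1*, a target that represses differentiation, at 57.5, 40.5 and 51.2 FPKM against 94.4, 70.8 and 72.8 (0.67 ± 0.23 SE, adjusted p = 0.0863). Of 8 Wnt genes 1 was downregulated (1.31% of all genes), *Lgr5*, a receptor for R-spondins. It had 94.1, 118 and 121 FPKM against 52.4, 64.7 and 25.7 (−1.31 ± 0.31 SE, limma, adjusted p = 0.0292). Of these 8 genes 4 were higher, with a median of 0.003 that changed sign with both other scalings. Among 22 Wnt ligands and receptors 18 were higher, with a median of 0.23 and 0 called.

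Mitochondrial genes encoded in the nucleus were higher by a small amount. The respiratory chain and ATP synthase hold subunits that pass electrons to oxygen and make ATP. Of 81 tested, 80 were higher, with a median log2 fold change of 0.23, and in 61 the TNFR2-/- libraries lay above all WT libraries (20.1% of all genes). Only 1 of the 81 was upregulated by the fold threshold (1.64% of all genes). Complex I had 37 of 37 higher (median 0.23, range 0.03 to 0.42), complex II 4 of 4 (0.34), complex III 9 of 9 (0.29), complex IV 13 of 14 (0.20) and ATP synthase 17 of 17 (0.23). *Ndufv1*, a flavoprotein subunit of complex I, had 1820, 1735 and 1763 FPKM in WT NS and 2378, 2315 and 2198 in TNFR2-/- NS (0.37 ± 0.05 SE, limma, adjusted p = 0.00903). *Uqcrc2* of complex III had 1167, 1092 and 1131 against 1354, 1492 and 1336 (0.30 ± 0.06 SE, adjusted p = 0.0222). *Cox7a1*, a subunit of complex IV, was the upregulated member, with 26.6, 20.9 and 24.4 FPKM against 33.0, 38.4 and 42.6 (0.65 ± 0.17 SE, adjusted p = 0.0411). By library the median of the 81 genes was 0.23, 0.34 and 0.12 in TNFR2-/- NS 2, 4 and 5, so here TNFR2-/- NS 4, the nearest to WT in number of genes apart, was the highest and TNFR2-/- NS 5 the lowest.

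Mitochondrial ribosomal proteins followed, with 73 of 76 higher, a median of 0.20, 51 with TNFR2-/- above all WT libraries (20.1% of all genes) and 0 called. *Mrps16* of the small subunit had 9.55, 9.28 and 9.57 FPKM in WT NS and 13.4, 13.9 and 13.9 in TNFR2-/- NS (0.51 ± 0.10 SE, limma, adjusted p = 0.0194). The 13 proteins encoded by the mitochondrial genome had a median of 0.14, with 11 higher, 1 without overlap and 0 called. Cytosolic ribosomal proteins differed from these, with 9 of 76 higher and a median of −0.06. Transcript length moved with the genotype difference over all genes. Among protein-coding genes averaging 1 FPKM or more, split into 4 bins of like size, those with transcripts of 255 to 2370 bases had a median log2 fold change of 0.123 and those of 5017 bases or more −0.063, and the bins from low to high GC content went from −0.035 to 0.119. Upregulated genes had a median transcript length of 2887 bases and downregulated genes 4225, beside 3431 for all genes of that level, and GC contents of 52.9% and 47.6% beside 49.6%. Nuclear respiratory chain genes had a median length of 1094 bases and mitochondrial ribosomal genes 1867, but cytosolic ribosomal genes 1100. The part of length and GC content in these results was not tested.

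Other enzymes feed the respiratory chain with electrons. All 18 genes of the tricarboxylic acid (TCA) cycle were higher, with a median of 0.27, a range of 0.20 to 0.37, 15 with TNFR2-/- above all WT libraries (20.1% of all genes) and 0 called. *Sdhd*, of succinate dehydrogenase, had 735, 686 and 705 FPKM in WT NS and 909, 983 and 860 in TNFR2-/- NS (0.37 ± 0.08 SE, limma, adjusted p = 0.0202). Among 13 genes of pyruvate entry, 2 of the kinases that inhibit pyruvate dehydrogenase were upregulated (1.64% of all genes). *Pdk2* had 29.0, 26.1 and 26.9 FPKM against 45.1, 48.0 and 58.0 (0.86 ± 0.09 SE, adjusted p = 0.0033), and *Pdk4* 28.9, 24.3 and 32.1 against 67.99, 41.4 and 68.7 (1.02 ± 0.28 SE, adjusted p = 0.043). *Pdk1* and *Pdk3* were not called (0.41 and 0.07, adjusted p = 0.184 and 0.556). *Pdp2*, a phosphatase that reverses this inhibition, had 25.5, 32.6 and 28.1 FPKM against 19.9, 18.0 and 18.6 (−0.59 ± 0.15 SE, adjusted p = 0.0362). The subunits of the complex, *Pdha1*, *Pdhb* and *Dlat*, had values of 0.16, 0.19 and 0.23. Of 20 glycolysis genes 16 were higher, with a median of 0.15 and 0 called.

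All 21 genes of mitochondrial fatty acid oxidation were higher, with a median of 0.37 and 18 above all WT libraries (20.1% of all genes). The medians by library were close, at 0.40, 0.36 and 0.36 in TNFR2-/- NS 2, 4 and 5. The 2 upregulated members carry out the transport of long-chain fatty acids into mitochondria. *Cpt1a*, the rate-limiting carnitine palmitoyltransferase, had 159, 151 and 133 FPKM in WT NS and 235, 203 and 255 in TNFR2-/- NS (0.64 ± 0.09 SE, limma, adjusted p = 0.00934). *Cpt2*, its partner at the inner membrane, had 14.3, 10.5 and 13.4 against 19.2, 16.6 and 23.1 (0.60 ± 0.17 SE, adjusted p = 0.0467). Of the other members, *Acaa2* and *Decr1* had values of 0.57 and 0.56 (limma, adjusted p = 0.0147 and 0.0185), under the fold threshold. Both were in the upper part of the list, which ranged from 0.07 to 0.64. Of 21 genes of fatty acid synthesis 10 were higher, with a median of −0.07, and 1 was downregulated (1.31% of all genes). This was *Acsl4*, which activates arachidonic acid, with 52.99, 67.3 and 64.1 FPKM against 37.5, 39.6 and 28.8 (−0.80 ± 0.13 SE, adjusted p = 0.0128).

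Of 20 enzymes of cholesterol synthesis, on which myelin formation depends, 18 were lower, with a median of −0.37, 17 had TNFR2-/- libraries below all WT libraries (14.5% of all genes), and 2 were downregulated (1.31% of all genes). *Msmo1* and *Cyp51*, which demethylate lanosterol and its products, had 729, 940 and 911 FPKM in WT NS against 536, 640 and 417 in TNFR2-/- NS (−0.71 ± 0.17 SE, limma, adjusted p = 0.0314), and 109, 131 and 122 against 78.2, 93.6 and 68.4 (−0.60 ± 0.13 SE, adjusted p = 0.0252). The enzymes before squalene had a median of −0.33 and those after it −0.42. Genes of sterol control and transport did not follow, with 12 of 17 higher, a median of 0.09 and 2 downregulated (1.31% of all genes). Among these 2 was the sterol carrier gene *Stard4* (−0.60 ± 0.12 SE, limma, adjusted p = 0.0197). The apolipoprotein gene *Apoe* had 1260, 1020 and 1010 FPKM against 1561, 1784 and 3786 and was not called (1.01 ± 0.36 SE, adjusted p = 0.0915). Within the cholesterol synthesis list WT NS 2 and TNFR2-/- NS 4 were again the nearest, with medians of −0.13 and −0.20. The sterol regulatory element TCACNCCAC, bound by SREBP, was found on either strand within 250 bases of 1 of 18 promoters of these enzymes (5.56%, 15 genes with a RefSeq promoter), of 0 of 20 promoters of 12 genes of sterol control and transport, and of 1.05% of all promoters. That promoter, of *Hmgcs1*, which makes HMG-CoA and differed by −0.35 ± 0.09 SE (adjusted p = 0.0334), lies on the plus strand of GRCm38.p6 at chr13:119690151-119690350, with the element in capitals.
Hmgcs1: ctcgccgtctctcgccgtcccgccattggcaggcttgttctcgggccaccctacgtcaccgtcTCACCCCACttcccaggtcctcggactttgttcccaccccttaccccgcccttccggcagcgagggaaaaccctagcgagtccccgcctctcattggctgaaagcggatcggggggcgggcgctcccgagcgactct

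**Figure D4:**
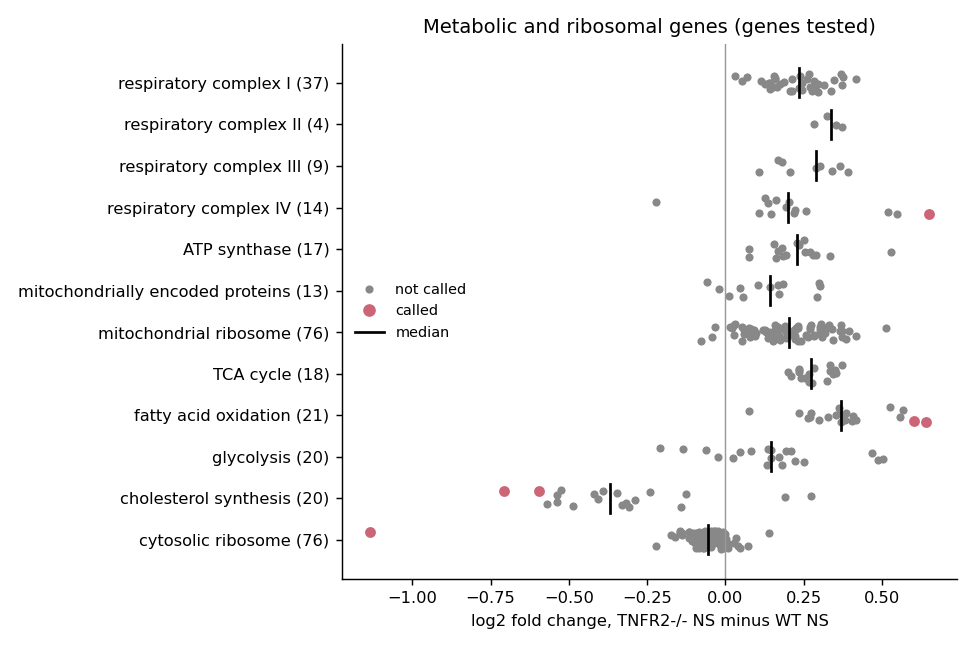
Log2 fold change, TNFR2-/- NS minus WT NS (x axis), of each gene tested in 12 metabolic and ribosomal sets, with called genes in red, others in grey and the median as a bar. All TCA cycle and fatty acid oxidation genes lie above 0, 18 of 20 cholesterol synthesis genes lie below 0, and *Rpl34* is the called point among cytosolic ribosomal genes.

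The metallothioneins *Mt1* and *Mt2*, which bind zinc and copper, were upregulated, *Mt1* from 157, 148 and 155 FPKM to 241, 241 and 293 (0.74 ± 0.07 SE, limma, adjusted p = 0.00194) and *Mt2* from 222, 160 and 210 to 399, 345 and 514 (1.08 ± 0.16 SE, adjusted p = 0.0099). Of 25 antioxidant genes 22 were higher and 1 was upregulated (1.64% of all genes), the heme oxygenase gene *Hmox1*, at 409, 328 and 421 FPKM against 576, 509 and 694 (0.62 ± 0.13 SE, limma, adjusted p = 0.0222). Glutathione transferases were higher in 17 of 18, with a median of 0.32 and 0 called. In the integrated stress response list 1 of 16 was upregulated (1.64% of all genes), the transcription factor gene *Cebpb* (0.72 ± 0.17 SE, limma, adjusted p = 0.0303). Of 20 genes of the unfolded protein response and 14 heat shock genes 0 were called, with medians of 0.08 and 0.02. The heat shock median changed sign with both other scalings.

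Genes of mitosis were lower in 25 of 26, with a median of −0.28 and 0 called. Their medians by library were −0.01, −0.22 and −0.69 in TNFR2-/- NS 2, 4 and 5, so that TNFR2-/- NS 2 lay close to the WT mean. Without TNFR2-/- NS 5 the median of the list was −0.09. *Kif11*, the motor that separates spindle poles, had 131, 144 and 132 FPKM in WT NS and 101, 97.7 and 59.8 in TNFR2-/- NS (−0.69 ± 0.22 SE, limma, adjusted p = 0.0683), and the proliferation marker *Mki67* 364, 413 and 332 against 333, 258 and 189 (−0.54 ± 0.23 SE, adjusted p = 0.143). Genes of S phase had a median of −0.12, with 0.12, −0.05 and −0.46 in the 3 TNFR2-/- libraries. Of 13 cell cycle inhibitors and p53 targets 0 were called, with *Cdkn1a*, the inhibitor p21, at 170, 176 and 188 FPKM against 146, 152 and 94.0 (−0.47 ± 0.18 SE, adjusted p = 0.111).

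**Figure D5:**
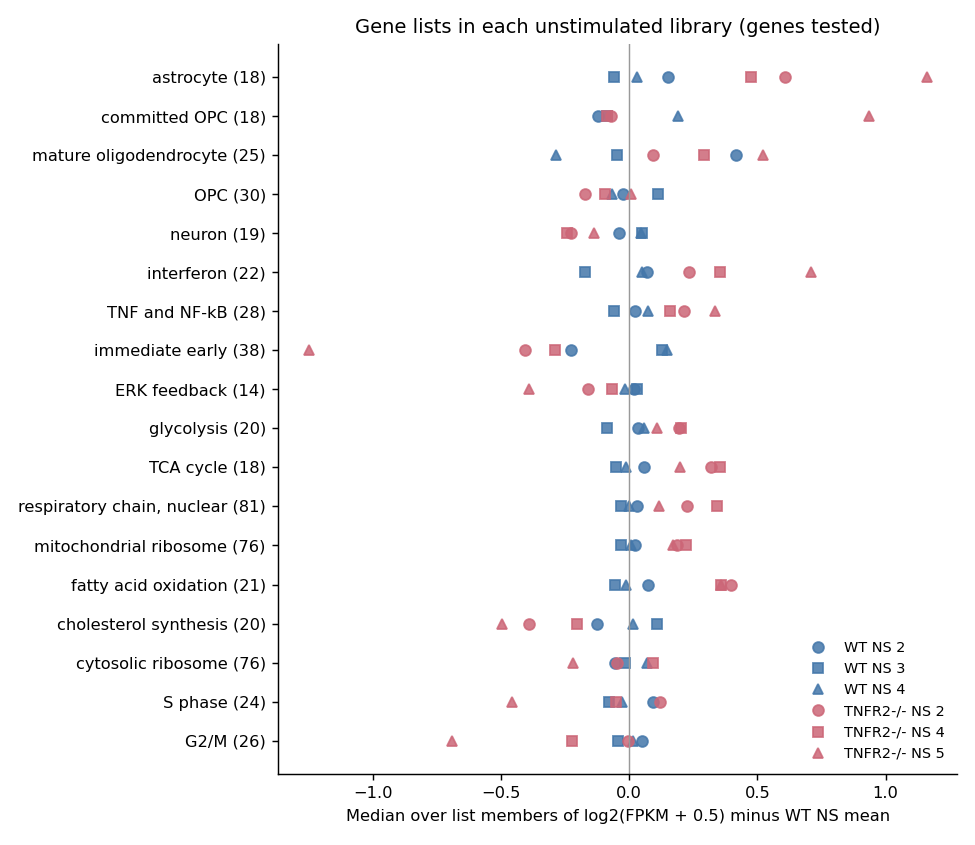
Median over the members of 18 lists of log2(FPKM + 0.5) minus the mean of the 3 WT NS libraries (x axis), for each WT NS (blue) and TNFR2-/- NS (red) library, with the number of genes tested in parentheses. TNFR2-/- NS 5 stands apart in the astrocyte, committed OPC, immediate early, S phase and G2/M lists, and the 3 TNFR2-/- libraries lie close together in the fatty acid oxidation and mitochondrial ribosome lists.

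Of 276 solute carriers 13 were upregulated and 4 downregulated, beside 1.64% and 1.31% of all genes, so the share of downregulated carriers was near that of all genes. *Slc2a4*, the insulin-responsive glucose transporter GLUT4, had 16.9, 8.56 and 17.7 FPKM in WT NS and 45.9, 29.1 and 45.0 in TNFR2-/- NS (1.48 ± 0.35 SE, limma, adjusted p = 0.0291), and *Slc13a3*, a dicarboxylate transporter, 7.01, 4.90 and 6.01 against 13.4, 11.2 and 27.0 (1.36 ± 0.32 SE, adjusted p = 0.0289). *Slc38a2*, the SNAT2 amino acid transporter, fell from 590, 687 and 681 to 316, 421 and 260 FPKM (−0.997 ± 0.18 SE, adjusted p = 0.0158), and the taurine transporter gene *Slc6a6* differed by −0.84. Potassium channels held 3 upregulated and 1 downregulated gene of 62, with *Kcng4* at 1.21 and *Kcna3* at −1.12, and 1 of 62 is again near the share of all genes. Protocadherins, adhesion proteins of the cell surface, gave 3 downregulated genes of 59 (1.31% of all genes) and 12 higher, with *Pcdh17* at 2158, 2879 and 2365 FPKM against 1366, 1698 and 1453 (−0.71 ± 0.16 SE, adjusted p = 0.0274). GABA receptors held 2 downregulated genes of 14 (1.31% of all genes), but 7 of the 14 were higher and the median was −0.02. These 2 were *Gabra3* and *Gabrb2*, subunits of the GABA-A receptor, at −0.84 and −0.77 (limma, adjusted p = 0.0278 and 0.0437). Of 25 glutamate receptor genes 0 were called. *Fgf1* rose from 156, 135 and 127 to 287, 234 and 508 FPKM (1.22 ± 0.31 SE, adjusted p = 0.036). Of 340 zinc finger genes named Zfp 9 were upregulated and 0 downregulated, a share near the 2.96% of all genes called in either direction. In all 239 of the 340 were higher (56.0% of all genes), with a median of 0.15. By library it was 0.14, 0.00 and 0.29 in TNFR2-/- NS 2, 4 and 5.

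The St libraries, which share their cultures with the NS libraries, gave a view of how the genotype difference stood after cytokines. Of the 529 genes called in NS, 504 had the same sign in the comparison of TNFR2-/- St with WT St and 132 were also called there in the same direction, 86 up and 46 down. These are 25.0% of the NS calls and 43.9% of the 301 St calls, and 0 genes were called in opposite directions. Of all genes tested, 1.68% were called in St. Both comparisons use the same cultures and the same estimate of spread per gene. Agreement between them is therefore not independent evidence, and the share of all genes with the same sign was not counted. The number called in both fell to 9 without WT St 4, 15 without WT St 3 and 24 without TNFR2-/- St 5, and was 236 without TNFR2-/- NS 4. Upregulated genes had a median log2 fold change of 0.75 in NS and 0.53 in St, and downregulated genes −0.81 and −0.55. *Masp2* on chromosome 4 had log2 fold changes of 1.58 in NS and 1.88 in St, *Agt* had 1.51 and 1.32, *Cpt1a* 0.64 and 0.64, and *Msmo1* −0.71 and −0.79. The median of complex I was 0.23 in NS and −0.00 in St, that of cholesterol synthesis −0.37 and −0.50, that of astrocyte genes 0.72 and 0.69, and that of immediate early genes −0.65 and −0.27. These differences between NS and St were not tested.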

How the data were processed

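OPCs were sequenced as 12 libraries in 4 groups of 3, and groups follow the sample labels. Per the study's methods and the submitters' processing notes, Trim Galore, STAR and EdgeR were used by the authors with GRCm38. The deposited tables hold FPKM, which the authors made by scaling read pairs per gene to the library total and to bases. Entries sharing a symbol (229, over 99 symbols) were left out. Reads could be recovered from FPKM, since for 26636 of 26636 genes present in 2 or more libraries all values were multiples of 1 read (within 0.02). The divisor is unrelated to exon length, so levels were not compared between genes, and the pseudocount and filters act unevenly.

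One limma fit (limma 3.58.1, R 4.3.3) of log2(FPKM + 0.5) used all 12 libraries and a mean-dependent prior. The pseudocount shrinks fold changes of genes near or under 0.5 FPKM. Voom on the recovered reads called 634 genes. A fold against at most 3 reads per library is a lower bound over that floor, and covers counting error only. For 1 gene an exact permutation test of 3 against 3 cannot go below 0.1. In data simulated for this comparison (18057 genes), 25 and 27 of 50 genes raised and lowered 2-fold and 49 and 47 of 50 changed 4-fold were called, with 1 unchanged gene. All simulated libraries were independent, with the same dispersion in every gene and group, and the changed genes averaged more than 50 reads. Shared cultures and an outlying culture were not simulated, so these counts cannot give the share of false calls in the data.

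The members and all lists were chosen with earlier results of these data known. Genes named were *Tnfrsf1b* and *Tnfrsf1a*, the 10 largest changes in each direction among calls with fully separate groups, up to 4 called members per list and direction (otherwise the 2 with the smallest p) and the first 3 markers of each cell type. Other list members, *Lamtor3* and genes near *Tnfrsf1b* were picked with their values in view. Positions and transcripts are from GENCODE M21 and promoters from RefSeq (GRCm38.p6). Python 3.11.15, numpy 2.4.6, pandas 2.3.3 and matplotlib 3.10.9 were used for lists and figures. There were 26 alternatives, including other pseudocounts, filters, scalings, spreads, replicate blocks and each library left out. Some genes that met the rule for naming are not reported here.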

Additional observations from a re-analysis of the deposited data

How the results depend on the processing

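The number of called genes, 529, stayed within 1.5 times under pseudocounts of 0.1 and 1 (556 and 470), a filter at 1 FPKM (605), both other scalings (493, with 226 up and 267 down, and 488, with 218 up and 270 down), no trend (489), library weights (736), voom (634) and library-scaled reads without the divisor (550, chosen after seeing the data). It moved to 295 without a filter on low values, where more genes are tested, to 7 with the 6 NS libraries alone (5485 at an unadjusted p under 0.05 with all 12) and to 2020 by adjusted p alone (1133 up and 887 down). With 1 library left out it ranged from 52 to 962, being 52 without WT NS 3, 56 without WT NS 4, 94 without TNFR2-/- NS 5, 230 without TNFR2-/- NS 2 and 962 without TNFR2-/- NS 4, and leaving out single St libraries gave 371 to 587. 

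The replicate numbers pair NS with St libraries of one genotype (deviations from group means correlated at 0.342 to 0.668 in the 6 same-number pairs and at −0.462 to 0.095 in the 12 others) and not WT with TNFR2-/- (the 2 pairs at −0.029 and 0.151, the 7 others at −0.181 to 0.181, so the number is a name across genotypes). With a replicate block by number 434 genes were called, and with a replicate block by culture, as a random effect with a correlation of 0.568, 602. The calls shared with St, 132, numbered 70 without a filter, 235 with library weights, 207 with the replicate block by culture, and 9 to 236 with 1 library left out (9 without WT St 4).

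Medians of the 11 lists compared kept their sign under other pseudocounts, scalings and libraries left out. That of the mitochondrial ribosome moved by more than the spread between libraries, from 0.205 to 0.162 and 0.160 with the scalings, and ranged from 0.169 to 0.224 with 1 library left out, and that of the TCA cycle from 0.249 to 0.352. Without TNFR2-/- NS 5 the mitosis median went from −0.28 to −0.09. Of 113 named genes that were called, *Tnfrsf1b* and *Gm5900* kept the call in all 26 alternatives, 40, these included, lost it in none but the fit of 6 NS libraries and single omissions, and 0 gene values reversed. The cause of these changes was not tested. Depth limits genes at a few reads, such as *Tgtp1* and *Dhrs7c*.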

Other observations

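Calls were spread over the genome, with shares from 1.70% of genes tested on chromosome 17 to 4.47% on chromosome 15 among autosomes, and chromosome 11 had 45 genes up and 21 down of 1573. Of 526 genes on the X chromosome 2 were up and 9 down. Protein-coding genes were called in 3.29% of cases (265 up, 207 down), processed pseudogenes in 0.92% and lincRNAs in 1.72%.

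Among the 44 genes called whichever library was left out, several fall outside the lists of the report, and they were chosen after their values were seen. *Ndn*, which encodes the imprinted growth suppressor necdin, had 91.3, 93.9 and 87.2 FPKM in WT NS and 158, 165 and 150 in TNFR2-/- NS (0.79 ± 0.06 SE, limma, adjusted p = 0.000435), and was called with the 6 NS libraries alone. *Ephx2*, soluble epoxide hydrolase, had 61.0, 56.8 and 42.8 FPKM against 108, 111 and 117 (1.07 ± 0.14 SE, adjusted p = 0.00708). *Pla2g7*, a phospholipase that degrades platelet-activating factor, had 93.3, 77.9 and 64.6 against 163, 151 and 211 (1.15 ± 0.15 SE, adjusted p = 0.00708), and *Coq9*, of coenzyme Q synthesis, 66.5, 57.7 and 57.5 against 94.6, 91.0 and 96.0 (0.63 ± 0.07 SE, adjusted p = 0.00246). The long noncoding RNA *Neat1*, the scaffold of paraspeckles, rose from 11.8, 8.21 and 8.63 to 30.6, 19.7 and 28.3 FPKM (1.40 ± 0.20 SE, adjusted p = 0.00938). *Fnip1*, a folliculin partner in AMPK and mTORC1 signaling, fell from 813, 1020 and 932 to 486, 565 and 532 FPKM (−0.80 ± 0.11 SE, adjusted p = 0.00835), and *Rbfox1*, a splicing regulator, from 11.7, 12.7 and 11.8 to 5.59, 6.57 and 5.21 (−1.002 ± 0.13 SE, adjusted p = 0.00708). In each of these genes the groups did not overlap.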
